A study of Mus musculus with 56 samples.

Results

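CD62L positive and CD62L negative activated CD4 T cells, taken 72 h after activation in the second experiment of the series, were compared in 6 of its 56 libraries. The 6 were chosen by their titles alone, as the 3 libraries of CD62L high and the 3 of CD62L low cells at that time. The series asks how cells in culture act on each other during early memory differentiation of CD4 T cells. It holds a count table of 18 libraries (experiment 1) and one of 38 libraries in 13 groups (experiment 2).

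All 6 libraries came from spleen CD4 T cells of C57BL/6 mice, cultured from 250000 cells per ml and activated through CD3 and CD28 with antibody-coated beads. No cytokine was added to any culture. At 72 h the cells were sorted into CD4+CD62L+CD44+ cells, called positive here, and CD4+CD62L-CD44+ cells, called negative. Both groups therefore carry the CD44 gate. The sort of experiment 1, used for comparison, has no CD44 gate in its labels. Sorted cells are a pool of whatever passed the gate, so fewer cells of a type and less RNA per cell cannot be told apart in any value below.

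CD62L is an adhesion molecule that lets lymphocytes enter lymph nodes from the blood. Naive and central memory T cells carry it on the surface, whereas effector and effector memory cells have shed it. Activated T cells lose it from the surface at first, and some of them regain it as the culture goes on.

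Levels are given below in CPM, counts per 1000000 counts of a library, scaled by the TMM factors of edgeR, for replicates 1, 2 and 3 in that order. Differences are on the log2 scale, positive minus negative, with their SE (n = 3 and 3) and the adjusted p of edgeR's quasi-likelihood test. Cd44, the molecule that both gates share, was low in all 6 libraries, with 13.7, 16.1 and 8.64 CPM in the positive and 15, 22.1 and 10.5 CPM in the negative cells. The Cd44 ranges overlapped, and its difference of -0.33 ± 0.356 did not pass the test (adjusted p = 0.802).

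The libraries held 1055838 to 1179511 counts in the negative and 1195084 to 1647605 in the positive group, and 10727 to 11074 gene symbols with a count. T-cell markers (Cd3e, Cd3d, Cd3g, Cd4, Cd28 and Lck) summed to 2239 to 2326 CPM in negative and 2403 to 2797 CPM in positive cells. The 7 CD8 and NK cell markers summed to 13.1 to 21 CPM in negative and 25.3 to 32.1 CPM in positive libraries, with Cd8a at 0 in all 6. Cd8b1 had 125 counts in positive and 61 in negative cells. Its ratio of negative to positive was 0.61, with an exact 95% interval of 0.44 to 0.84 that covers counting error only. Neither of the 2 markers of this list that were tested passed. Of 7 B cell markers, summing to 1.62 to 13.1 and 6.14 to 8.4 CPM, Cd79a, Ms4a1, Pax5 and Blk were at 0 throughout. Cd79b had 33 counts in positive and 25 in negative cells. The 10 myeloid markers measured summed to 6.54 to 16.7 CPM in negative and 8.86 to 45.9 CPM in positive cells. Positive replicate 3 alone had 28 counts of Csf1r and 24 of Fcgr3, against 0 to 5 and 0 to 1 in each other library. Markers of red cells and platelets stayed at 0 to 2.3 CPM. No value here shows how far the other cells bear on the gene results, and their part was not tested.

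Of 9239 genes tested, 141 passed an adjusted p of 0.05 (1.53%), 63 higher (0.682%) and 78 lower (0.844%) in positive cells. The median difference of all genes was 0.01 on the log2 scale, and the median size among the 141 was 0.84, with 46 beyond 1. At an unadjusted p under 0.05 there were 523 higher (5.66%) and 568 lower genes (6.15%). Without positive replicate 3, the library with the most myeloid transcripts, 50 genes passed, and 64, 91, 70, 88 and 119 passed without positive replicate 2, positive replicate 1 and negative replicates 1, 2 and 3. Of the 6 libraries, positive replicate 1 and negative replicate 3 carry a second title number of 2, whose meaning is not given in the labels, and the others carry 1. With that number as a covariate 170 genes passed, and among the libraries with number 1 alone 60. Of the 49 genes named by rule that passed, 21 did so in all 6 of those fits. A plot of the differences against mean level shows the called genes of both directions spread over the range of levels.

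**Figure D1:**
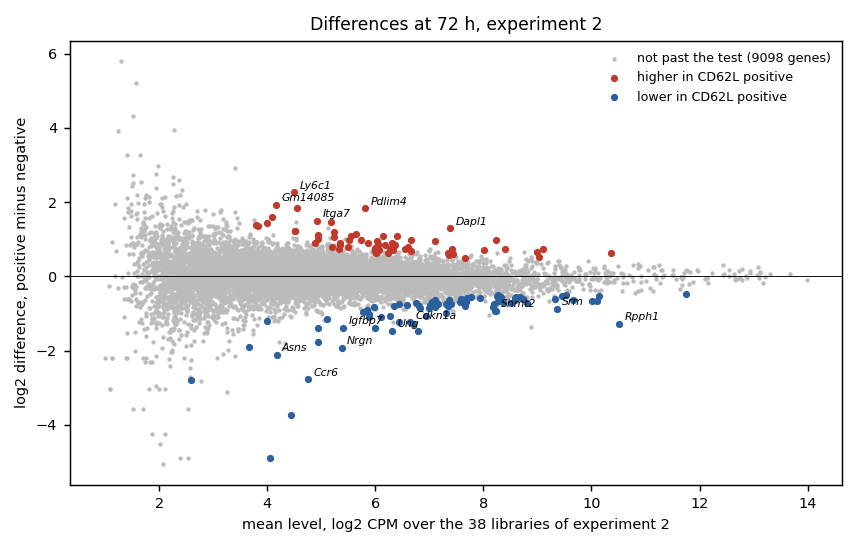
Log2 difference (positive minus negative, 72 h, experiment 2; vertical axis) against the mean level in log2 CPM over the 38 libraries of experiment 2 (horizontal axis), one point per gene. Red points mark genes higher and blue points genes lower in positive cells, with Pdlim4 labelled among the higher genes, at 1.84, and Nrgn, Cdkn1a and Asns among the lower ones.

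Genes higher in CD62L positive cells included surface and signalling molecules. Pdlim4, an adaptor that binds the actin cytoskeleton, had 198, 190 and 218 CPM in positive and 53.8, 63.1 and 52.7 CPM in negative cells (1.84 ± 0.18, adjusted p = 3.61e-10). Sema4a, a membrane semaphorin, had 84.8, 86.5 and 103 CPM against 33.5, 39.4 and 26.8 CPM (1.46 ± 0.221, adjusted p = 3.62e-05). Both were higher in each positive library than in each negative one, and both kept their call without any one library. The 10 largest rises and falls were named only if their groups did not overlap, so for them separation holds by selection. Of all genes, 10.2% were higher and 9.6% lower without overlap. Itga7, an integrin chain that binds laminin, had 91.6, 77.3 and 104 CPM in positive and 30, 24.6 and 42.2 CPM in negative cells (1.5 ± 0.295, adjusted p = 0.00225). The small GTPases Arl4c and Arl5c were higher by 1.14 ± 0.239 and 1.08 ± 0.185, with adjusted p of 0.00437 and 0.000304. Arl4c missed the threshold without negative replicate 1, the lowest of the 6 libraries for it (0.90, adjusted p = 0.0844). Matk, a kinase that restrains Src family kinases, was higher by 1.11 ± 0.3 (adjusted p = 0.0398) and lost its call without any one of 5 libraries, all but negative replicate 3.

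Smaller transcripts of the same direction included Vipr1, the receptor for vasoactive intestinal peptide, and Hid1, a protein of the Golgi. Vipr1 had 29.4, 44.4 and 35.7 CPM in positive and 6.18, 12.3 and 11.4 CPM in negative cells (1.85 ± 0.328, adjusted p = 0.000451). Hid1 had 14.4, 19.1 and 15 CPM against 3.53, 4.1 and 8.11 CPM (1.59 ± 0.354, adjusted p = 0.0077). Groups did not overlap for either gene, but Hid1 missed the threshold without positive replicate 2 or negative replicate 1 or 2, at adjusted p of 0.0551 to 0.0749. Gm14085, a gene known only by number, was higher by 1.93 ± 0.283 (adjusted p = 2.02e-05), and its positive libraries at 49.5 to 55.1 CPM lay above negative ones at 10.5 to 16.4 CPM. Bambi-ps1, named as a pseudogene, was higher by 1.18 ± 0.213 (adjusted p = 0.000548). Reads of its parent gene may be counted there, so its value is uncertain.

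**Figure D2:**
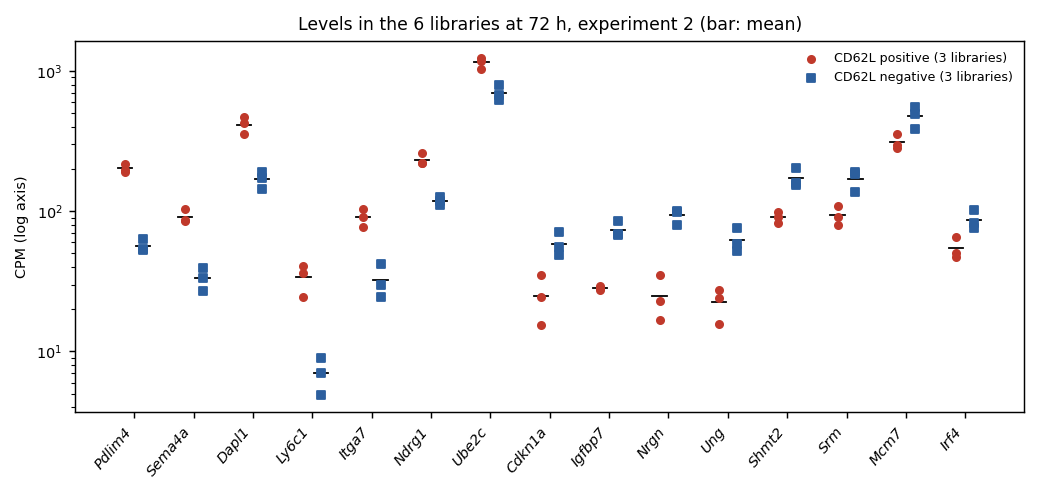
CPM in each of the 6 libraries (log axis; red circles positive, blue squares negative, bars the group means, n = 3 each) for 15 genes that passed the test. Pdlim4 and Sema4a stand apart widely, whereas the nearest positive and negative libraries of Mcm7 (358 and 386 CPM) and Irf4 (65.8 and 76.3 CPM) lie close together.

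Genes of naive and memory cells were next. Of 20 tested in that list, 3 were higher in positive cells (Ly6c1, Dapl1 and Cd27) and none was lower, beside 0.682% of all genes called higher. The list's median difference was 0.45, with 18 of 20 above 0, beside a median of 0.01 over all genes. Ly6c1, a surface protein of naive and memory lymphocytes, had 24.6, 40.6 and 36.3 CPM in positive and 7.06, 9.02 and 4.87 CPM in negative cells (2.26 ± 0.346, adjusted p = 4.2e-05). Its near-identical neighbour Ly6c2 could share its reads, so the value is uncertain. Dapl1, or death-associated protein-like 1, had 468, 353 and 424 CPM against 144, 173 and 191 CPM (1.29 ± 0.165, adjusted p = 9.43e-07). Cd27, a costimulatory receptor of the TNF receptor family, had 311, 365 and 331 CPM against 241, 260 and 169 CPM (0.59 ± 0.162, adjusted p = 0.0453). Groups were apart for all 3 genes, but Cd27 kept its call in only 1 of 6 fits that left out a library, the one without negative replicate 2.

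The transcription factors that maintain the naive and memory state did not pass. Tcf7 had 122, 184 and 153 CPM in positive and 113, 146 and 91.7 CPM in negative cells, and its difference of 0.39 ± 0.196 had an adjusted p of 0.43. Lef1 differed by 0.34 ± 0.21 (adjusted p = 0.567), Bach2 by 0.42 ± 0.21 (adjusted p = 0.43) and Klf2 by 0.25 ± 0.182 (adjusted p = 0.637). All 4 had overlapping groups. Il7r, the survival cytokine receptor of resting T cells, had 37.6 to 39 CPM in positive and 17.2 to 23.8 CPM in negative libraries without overlap. Its difference of 0.85 ± 0.365 did not pass (adjusted p = 0.293), although it did in the fit of these 2 groups alone (0.85, adjusted p = 0.0487). The 8 Gimap genes, small GTPases of resting lymphocytes, all had differences above 0, from 0.07 to 0.65, and none passed.

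Among 15 homing and egress genes tested, 1 was higher (S1pr1) and 1 lower (Ccr6), beside 0.682% and 0.844% of all genes. The list median was 0.18. S1pr1, the receptor with which lymphocytes leave lymph nodes, had 154, 243 and 179 CPM in positive and 99.7, 120 and 101 CPM in negative cells. Its lowest positive library stood above the highest negative one, and the difference was 0.84 ± 0.199 (adjusted p = 0.0145). The call ended without positive replicate 2 or negative replicate 1 or 3, at adjusted p of 0.0606 to 0.181. Ccr7, the chemokine receptor that works with CD62L in lymph node entry, had 759, 754 and 710 CPM against 629, 577 and 611 CPM. Groups were apart but close, and the difference of 0.29 ± 0.123 did not pass (adjusted p = 0.276). Ccr6, a chemokine receptor of Th17 and some regulatory and memory cells, had 3 counts in all positive libraries together and 18 in the negative ones. The ratio of negative to positive was 7.54, with an exact 95% interval of 2.2 to 40 that covers counting error only (adjusted p = 0.0114). Without positive replicate 3 or negative replicate 2 or 3 its adjusted p was 0.0524 to 0.0914.

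Genes that act in mitosis were higher in positive cells as far as they passed. Of 24 tested, 4 passed, all higher (Aurka, Top2a, Ube2c and Nusap1), beside 0.682% of all genes called higher. All 24 had differences above 0, with a median of 0.57. Groups did not overlap for 16 of the 24, beside 10.2% of all genes that were higher without overlap and 9.6% that were lower. Top2a, which untangles chromosomes, had 1165, 961 and 1301 CPM in positive and 709, 596 and 877 CPM in negative cells (0.65 ± 0.156, adjusted p = 0.0152). Ube2c, the ubiquitin-conjugating enzyme that works with the anaphase-promoting complex, had 1245, 1030.3 and 1181 CPM against 795, 675 and 620 CPM (0.73 ± 0.177, adjusted p = 0.0191). Aurka, a spindle kinase, had 114, 97.2 and 123 CPM against 68.8, 60.7 and 55.2 CPM (0.86 ± 0.184, adjusted p = 0.00518). In each of these genes the lowest positive library was above the highest negative one. Nusap1, which binds spindle microtubules, was higher by 0.94 ± 0.245 (adjusted p = 0.0347). Mki67, the proliferation antigen, differed by 0.17 ± 0.249 (adjusted p = 0.869).

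Cdc25b, outside that list, is the phosphatase that activates cyclin-dependent kinases on the way into mitosis. It had 335, 331 and 342 CPM in positive and 162, 148 and 164 CPM in negative cells, with very little spread within either group. The difference was 1.09 ± 0.209 (adjusted p = 0.0014), and it passed in each fit that left out a library. The mitosis calls were less steady, with 0 of 24 passing without positive replicate 3 and 1 to 3 without any other single library, while the list median stayed between 0.51 and 0.63. Aurka lost its call without positive replicate 3 (adjusted p = 0.0582) and among the libraries with second title number 1 (adjusted p = 0.104).

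Promoters of 4 of these genes are shown, since transcripts of this kind are known to share CCAAT boxes, bound by NF-Y, and the CHR element of genes that peak late in the cell cycle. Each is the 250 bases before the annotated start, written 5′ to 3′ on the gene's strand, from RefSeq on GRCm38.p6, a later build than that of the counts. Capitals mark CCAAT or its reverse complement ATTGG, and TTTGAA or its reverse complement TTCAAA. They lie at chr2:164769679-164769928 on the plus strand (Ube2c), chr11:99024190-99024439 on the minus strand (Top2a), chr2:172370571-172370820 on the minus strand (Aurka) and chr2:131186698-131186947 on the plus strand (Cdc25b).
Ube2c: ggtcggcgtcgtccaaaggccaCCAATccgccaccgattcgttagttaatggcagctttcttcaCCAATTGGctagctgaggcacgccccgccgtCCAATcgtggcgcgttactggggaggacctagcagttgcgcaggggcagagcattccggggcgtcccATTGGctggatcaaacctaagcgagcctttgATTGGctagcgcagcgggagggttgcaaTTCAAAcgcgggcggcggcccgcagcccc
Top2a: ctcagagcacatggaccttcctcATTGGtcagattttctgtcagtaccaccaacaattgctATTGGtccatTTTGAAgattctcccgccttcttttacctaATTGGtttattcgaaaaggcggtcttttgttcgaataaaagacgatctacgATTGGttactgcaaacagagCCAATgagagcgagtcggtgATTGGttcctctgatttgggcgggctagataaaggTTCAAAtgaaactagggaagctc
Aurka: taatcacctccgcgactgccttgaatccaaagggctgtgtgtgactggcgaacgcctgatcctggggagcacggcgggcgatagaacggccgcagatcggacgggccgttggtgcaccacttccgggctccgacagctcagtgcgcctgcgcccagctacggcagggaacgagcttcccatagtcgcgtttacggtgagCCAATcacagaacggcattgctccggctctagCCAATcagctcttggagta
Cdc25b: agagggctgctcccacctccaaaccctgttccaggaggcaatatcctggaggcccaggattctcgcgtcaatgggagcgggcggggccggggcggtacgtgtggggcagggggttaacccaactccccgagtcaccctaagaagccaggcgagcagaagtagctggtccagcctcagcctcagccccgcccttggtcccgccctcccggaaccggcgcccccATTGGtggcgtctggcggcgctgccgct

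The Ube2c and Top2a windows hold several CCAAT boxes and at least 1 CHR each, whereas Aurka and Cdc25b hold CCAAT but no CHR in these letters. Nusap1, the called gene of the mitosis list that is not shown, holds neither CCAAT nor CHR in its window. Cdc25b is from outside that list. Windows were searched on both strands, and a gene with several annotated starts counted if any of its windows held the letters. Genes with more starts thus had more windows to search. CCAAT was found for 16 of 20 mitosis genes with an entry (80%) and TTTGAA for 6 (30%). Among genes higher in positive cells, 28 of 42 with an entry held CCAAT (66.7%), against 25 of 59 lower genes (42.4%), 40.8% of 7098 genes tested and 37.5% of all 27025 in the table. TTTGAA was in 14.3% of the higher and 8.47% of the lower genes, beside 12.4% of genes tested and 18.3% of all. CACGTG, the E-box that Myc binds, was in 4.76% of the higher and 16.9% of the lower genes, beside 10.6% of genes tested and 6.86% of all. In the ribosome biogenesis list considered below, 1 of 19 genes with an entry held CACGTG (5.26%). The mitosis genes are partly the same as the higher genes, and these shares are descriptions of letters in a window.

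DNA replication genes pointed the other way. Of 28 tested, 5 were lower in positive cells (Gins2, Mcm7, Rfc3, Mcm6 and Mcm3) and none was higher, beside 0.844% of all genes called lower. The median was -0.39, and 26 of 28 were below 0. Mcm7, a subunit of the replicative helicase, had 298, 283 and 358 CPM in positive and 497, 553 and 386 CPM in negative cells (-0.61 ± 0.139, adjusted p = 0.00904). Gins2, a subunit of the complex that activates that helicase, had 98.5, 78.8 and 88.7 CPM against 140, 139 and 136 CPM (-0.64 ± 0.142, adjusted p = 0.0077). Rfc3, part of the clamp loader, had 56.8, 54.3 and 65.7 CPM against 90, 83.7 and 118 CPM (-0.72 ± 0.167, adjusted p = 0.0108). Every positive library was below every negative one in these genes. Mcm6 was lower by -0.56 ± 0.139 (adjusted p = 0.0206) and Mcm3 by -0.61 ± 0.157 (adjusted p = 0.0279). Pcna, the sliding clamp, differed by -0.25 ± 0.192 (adjusted p = 0.67), and Rrm2, a subunit of the enzyme that makes deoxynucleotides, by 0.19 ± 0.194 (adjusted p = 0.782). Without positive replicate 2 none of the 28 passed, and without any other single library 2 to 4 did, at list medians of -0.44 to -0.34.

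Ung, the glycosylase that removes uracil from DNA, was among the largest falls, with 15.7, 27.6 and 24.2 CPM in positive and 58.2, 75.5 and 51.9 CPM in negative cells. Positive libraries were all lower, and the difference was -1.46 ± 0.233 (adjusted p = 9.26e-05). Cdkn1a, the inhibitor of cyclin-dependent kinases best known as a p53 target, had 34.9, 24.5 and 15.6 CPM against 70.6, 48.4 and 56 CPM (-1.23 ± 0.228, adjusted p = 0.00087). It was the only 1 of 16 p53 target genes tested that passed, beside 1.53% of all genes, and the median of those genes was 0.00. Both genes kept their call without any one library.

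Genes of the ribosome biogenesis list lay on the lower side in positive cells. All 25 tested had differences below 0, with a median of -0.52, whereas 4701 of all 9239 genes were above 0. Of the 25, 2 passed (Srm and Bop1), both lower, beside 0.844% of all genes called lower. Gar1, Nop16, Mrto4 and Mybbp1a, outside that list and chosen after their values were seen, were called lower too, so the count covers the list alone. Srm, which makes spermidine, had 109, 91.1 and 80.1 CPM in positive and 138, 185 and 190 CPM in negative cells (-0.88 ± 0.162, adjusted p = 0.000855). Bop1, needed to make the large ribosomal subunit, had 57.4, 59.7 and 46.7 CPM against 109, 86.1 and 87.6 CPM (-0.79 ± 0.172, adjusted p = 0.00613). Positive libraries were all lower in both, but Bop1 missed the threshold without positive replicate 3 (adjusted p = 0.0875) or negative replicate 1 (adjusted p = 0.07). Myc, the transcription factor that drives many such genes, had 65, 116 and 81.8 CPM against 114, 124 and 58.4 CPM. Those ranges overlapped, and the difference of -0.18 ± 0.232 did not pass (adjusted p = 0.848).

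Enzymes of amino acid and one-carbon metabolism were lower in positive cells where they passed. Of 20 genes of the amino acid stress response tested, 2 passed, both lower (Asns and Shmt2), beside 0.844% of all genes called lower. The list's median was -0.38. Asns, which makes asparagine, had 5.47, 0.765 and 4.61 CPM in positive and 19.4, 14.8 and 15.4 CPM in negative cells, or 17 and 59 counts (-2.12 ± 0.425, adjusted p = 0.00246). Shmt2, the mitochondrial enzyme that takes one-carbon units from serine, had 99.2, 82.7 and 91 CPM against 204, 160 and 154 CPM (-0.92 ± 0.206, adjusted p = 0.0088). Neither gene's groups overlapped. Asns passed without any one library, whereas Shmt2 did not without positive replicate 2 or 3 or negative replicate 1, at adjusted p of 0.0582 to 0.0868.

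Among 15 genes of folate and one-carbon metabolism, a list drawn up after these values were seen, 4 were lower (Slc19a1, Shmt1, Shmt2 and Mthfd1) and none was higher. The list's median was -0.44, and 0.844% of all genes were called lower. Slc19a1, the carrier that brings reduced folate into cells, had 21.2, 26 and 19 CPM in positive and 50.3, 59.9 and 45.4 CPM in negative cells (-1.24 ± 0.273, adjusted p = 0.00728). Mthfd1, which interconverts folate one-carbon units in the cytosol, had 25.3, 36.7 and 44.9 CPM against 71.5, 82.8 and 72.2 CPM (-1.07 ± 0.18, adjusted p = 0.000239). For each of these enzymes all positive libraries were below all negative ones. Slc19a1 missed the threshold without positive replicate 3 (adjusted p = 0.0745) or negative replicate 2 (adjusted p = 0.0531). Of 17 genes of purine and pyrimidine synthesis tested, a list also drawn up afterwards, Cad and Aprt were lower, by -0.99 ± 0.197 (adjusted p = 0.00229) and -0.56 ± 0.145 (adjusted p = 0.0284).

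Further large falls lay outside these lists. Nrgn, or neurogranin, a calmodulin-binding protein best known from neurons, had 34.9, 23 and 16.7 CPM in positive and 98.8, 101 and 80.3 CPM in negative cells (-1.92 ± 0.267, adjusted p = 7.27e-06). Igfbp7, a secreted binding protein, had 27.4, 29.1 and 28.2 CPM against 85.6, 67.3 and 68.9 CPM (-1.39 ± 0.244, adjusted p = 0.000451). Smyd5, a SET domain protein, had 16.4, 11.5 and 12.7 CPM against 37.9, 33.6 and 41.4 CPM (-1.47 ± 0.261, adjusted p = 0.000451). The 3 genes were lower in each positive library, which the rule that named them required, and they passed without any one library. Mrpl38, of the mitochondrial ribosome, was lower by -1.39 ± 0.246 (adjusted p = 0.000451). The methyltransferases Mettl13 and Mettl1, which modify a translation elongation factor and transfer RNA, were lower by -1.77 ± 0.386 (adjusted p = 0.0065) and -1.29 ± 0.275 (adjusted p = 0.00506). Mettl13 did not pass without positive replicate 2 or negative replicate 2, nor Mettl1 without positive replicate 3 or negative replicate 3, at adjusted p of 0.0531 to 0.0882.

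Slc25a33, a mitochondrial carrier of pyrimidine nucleotides, was lower by -1.39 ± 0.334 (adjusted p = 0.0153) and did not pass without positive replicate 2 or 3 or negative replicate 2 (adjusted p = 0.0944 to 0.254). Rapsn, which clusters acetylcholine receptors at the synapse of nerve and muscle, had 4.79, 6.89 and 4.61 CPM in positive and 23.8, 18 and 18.7 CPM in negative cells (-1.90 ± 0.424, adjusted p = 0.00794). It missed the threshold without positive replicate 3 (adjusted p = 0.0782) or negative replicate 1 (adjusted p = 0.0558). Rpph1, the RNA subunit of ribonuclease P, had 70.4, 37.5 and 32.8 CPM against 109, 89.4 and 143 CPM (-1.28 ± 0.231, adjusted p = 0.000955). Rpph1 has no poly-A tail, whereas these libraries were primed on poly-A, so what its counts stand for is uncertain. Bst2, an interferon-induced membrane protein, was lower by -0.86 ± 0.171 (adjusted p = 0.00212). It was the only 1 of 21 type I interferon genes tested that passed, beside 1.53% of all genes, at a list median of 0.10.

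The list of genes induced through the T-cell receptor gave 1 call at 72 h. Of 30 tested, 1 passed (Irf4, lower), beside 0.844% of all genes called lower, and the list's median was -0.19. Differences in the list ran from -2.96 to 0.85, with 18 below 0 and 11 above. Irf4, a transcription factor whose level follows the strength of the receptor signal, had 47.2, 65.8 and 50.1 CPM in positive and 102, 76.3 and 81.9 CPM in negative cells. Its groups were apart by a small gap, with a difference of -0.68 ± 0.17 (adjusted p = 0.0228). It did not pass without positive replicate 1 or 3 or negative replicate 1 (adjusted p = 0.132 to 0.191). Cd69, an early activation antigen, had 32.8, 36.7 and 32.8 CPM against 34.4, 36.9 and 25.1 CPM (0.08 ± 0.241, adjusted p = 0.939). Nr4a1, an early gene of receptor signalling, had 24.6, 24.5 and 17.9 CPM against 21.2, 23 and 31.6 CPM (-0.19 ± 0.27, adjusted p = 0.861). Both had overlapping groups.

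Interleukin 2 and its receptor did not pass either. Il2 had 15, 20.7 and 11.5 CPM in positive and 29.1, 13.9 and 13.8 CPM in negative cells, with overlapping ranges (-0.28 ± 0.352, adjusted p = 0.841). Il2ra differed by 0.23 ± 0.196 (adjusted p = 0.722) and Il2rb by 0.42 ± 0.191 (adjusted p = 0.334). Of the 20 genes of IL-2 and STAT5 tested, 1 passed, beside 1.53% of all genes. That gene was Lta, a cytokine of the TNF family, with 178, 148 and 137 CPM against 242, 204 and 275 CPM (-0.64 ± 0.146, adjusted p = 0.00918). Positive libraries were lower throughout, but the call ended without positive replicate 2 or 3 or negative replicate 3, at adjusted p of 0.076 to 0.12. The receptor chains Il6ra and Il6st, which carry the IL-6 signal, had no overlap and differed by 0.51 ± 0.214 (adjusted p = 0.266) and 0.55 ± 0.234 (adjusted p = 0.276). None of the 12 IL-6 and STAT3 genes tested passed.

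No lineage factor tested passed. Gata3, the factor of Th2 cells, had 165, 212 and 180 CPM in positive and 124, 112 and 114 CPM in negative cells. Groups were apart, and its difference of 0.67 ± 0.191 missed the threshold (adjusted p = 0.0586). It passed in 4 of 15 alternatives, with DESeq2, with the second title number as a covariate, and in the fit of these 2 groups alone with or without the replicate number as a block. Bcl6, of follicular helper cells, differed by 0.59 ± 0.586 (adjusted p = 0.782). Foxp3, of regulatory T cells, had 8.42 to 13.7 CPM in positive and 4.1 to 7.3 CPM in negative libraries (1.03 ± 0.472, adjusted p = 0.346). The genes Tbx21, Prdm1 and Ifng had too few counts to be tested, with 0 and 4, 2 and 3, and 0 and 1 counts in positive and negative cells. Il13, a Th2 cytokine also below the filter, had 6, 2 and 9 counts in the negative libraries and 0 in the positive ones. With a floor of 3 counts over the positive group, it was at least 7.12-fold lower there, and no test was made. None of the 6 Th1, 6 Th2, 11 regulatory, 9 follicular helper, 14 effector and 7 coinhibitory receptor genes tested passed. The effector genes had a median of -0.78, with 4 of 14 above 0. Of 4 Th17 genes tested, 1 was lower (Ccr6, described above), beside 0.844% of all genes, at a list median of -1.38. Gzmb, a cytotoxic granule protease, differed by -0.85 ± 0.759 (adjusted p = 0.744).

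Calcium-binding and LIM proteins, glucose transport and hypoxia genes gave single calls. Among 16 annexin, galectin and S100 genes tested, Crip1 and S100a6 were higher, beside 0.682% of all genes called higher. Crip1, a small LIM protein, had 4250.5, 3513 and 4466 CPM in positive and 2553, 2245 and 3161 CPM in negative cells (0.62 ± 0.15, adjusted p = 0.017). S100a6, a calcium-binding protein, had 280, 263 and 282 CPM against 158, 168 and 179 CPM (0.71 ± 0.179, adjusted p = 0.0253). Groups did not overlap, yet Crip1 lost its call without any one of 4 libraries (positive replicates 1 and 3, negative replicates 1 and 2) and S100a6 without any one of 5 (all but negative replicate 3). Lgals1, the galectin of activated T cells, had overlapping groups and differed by 0.18 ± 0.174 (adjusted p = 0.774).

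Ndrg1, a stress and hypoxia gene, had 220, 259 and 221 CPM in positive and 110, 127 and 118 CPM in negative cells, without overlap. Its difference of 0.98 ± 0.168 (adjusted p = 0.000304) was the only call among 19 hypoxia genes tested, beside 0.682% of all genes called higher. The list's median was 0.52, beside -0.14 at 48 h and -0.08 at 72 h in experiment 1. The glucose transporter Slc2a3 had 99.2, 126 and 110 CPM against 62.7, 70.5 and 75.4 CPM (0.68 ± 0.181, adjusted p = 0.0362) and was the only 1 of 14 glycolysis genes called. It did not pass without any one of 5 libraries, all but positive replicate 1 (adjusted p = 0.0525 to 0.181). Gapdh swung between 6.12 and 909 CPM within these 6 libraries, with high and low values in both groups, so its counting is uncertain and no difference is read from it. Calr, a chaperone of the endoplasmic reticulum, was lower by -0.51 ± 0.139 (adjusted p = 0.0433), and it passed in none of the 6 fits without a library. It was the only call among 18 secretory genes, beside 0.844% of all genes called lower. None of the 24 oxidative phosphorylation genes passed, at a median of -0.19.

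**Figure D3:**
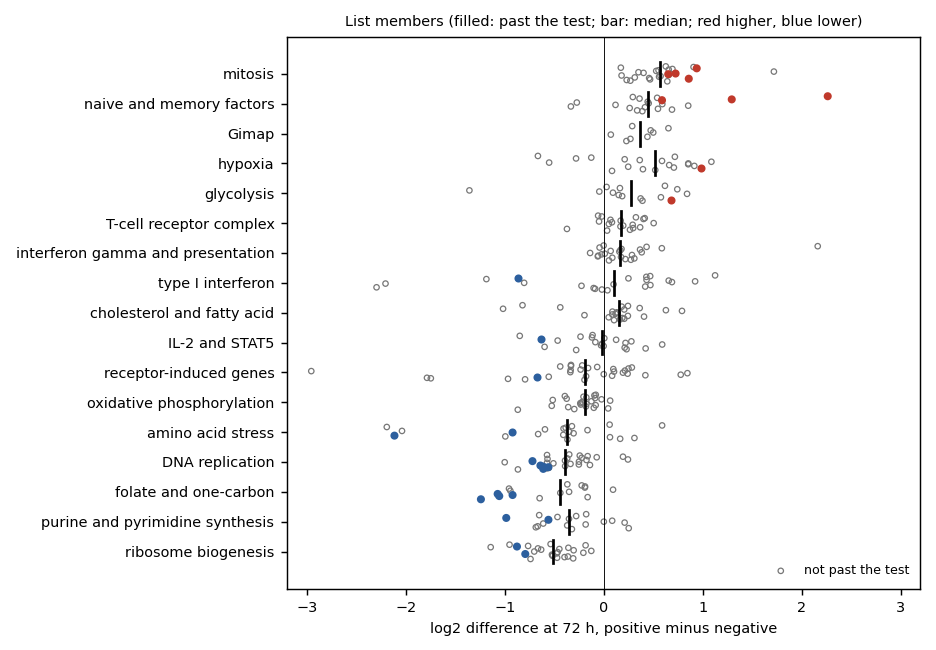
Log2 difference at 72 h (positive minus negative) of the members tested in 17 gene lists, one point per gene and a black bar at each list's median. Filled points passed the test (red higher, blue lower), open points did not; the medians of these 17 lists run from 0.57 for mitosis to -0.52 for ribosome biogenesis.

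The same sort at 48 h, in 6 other libraries of experiment 2, gave 1341 calls (14.5% of 9239), 668 higher (7.23%) and 673 lower (7.28%). The change of the CD62L difference from 48 to 72 h was tested as an interaction and passed for 120 genes (1.3%), 55 with a difference that moved up (0.595%) and 65 with one that moved down (0.704%). Il2 had the smallest adjusted p of the 120. At 48 h it had 1.5 ± 0.396 CPM in positive and 97.9 ± 25.3 CPM in negative cells (SD, n = 3), and at 72 h 15.7 ± 4.61 and 19 ± 8.81 CPM. Its difference went from -5.98 ± 0.414 to -0.28 ± 0.352, a change of 5.70 ± 0.597 (adjusted p = 4.13e-08).

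Other receptor-induced genes changed in the same way. Nr4a1 went from -3.0 ± 0.237 at 48 h to -0.19 ± 0.27 at 72 h (change 2.80 ± 0.362, adjusted p = 1.31e-06). Bhlhe40, a transcription factor of activated T cells, went from -2.18 ± 0.229 to 0.21 ± 0.232 (change 2.39 ± 0.327, adjusted p = 4.96e-06). Nfkbia, the inhibitor of NF-kB, went from -1.18 ± 0.123 to -0.07 ± 0.123 (change 1.12 ± 0.173, adjusted p = 6.38e-05). None of the 3 passed at 72 h. Gadd45b, a stress-induced gene, went from -2.30 ± 0.169 to -0.68 ± 0.195, which did not pass at 72 h (adjusted p = 0.06; change 1.62 ± 0.26, adjusted p = 0.000104). Of 30 receptor-induced genes, 22 were lower and 1 higher in positive cells at 48 h, with a median of -1.30, beside 1 lower and a median of -0.19 at 72 h. Irf4 fell in the negative cells from 202 ± 4.15 to 86.9 ± 13.7 CPM and held at 50 ± 6.45 and 54.4 ± 10 CPM in the positive ones, and its change of 1.33 ± 0.234 passed (adjusted p = 0.000383).

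Some differences turned round between the times. Lta was higher in positive cells at 48 h, at 2657 ± 132 against 1329 ± 230 CPM, and lower at 72 h, at 154 ± 21.5 against 240 ± 35.4 CPM. Its change was -1.64 ± 0.199 (adjusted p = 3.31e-07). S100a6 was lower in positive cells at 48 h (-0.69 ± 0.195, adjusted p = 0.0115) and higher at 72 h, a change of 1.40 ± 0.265 (adjusted p = 0.000995). H19, an imprinted noncoding RNA, had 107 ± 8.06 CPM in positive and 27 ± 4.62 CPM in negative cells at 48 h, and 1 and 14 counts in all at 72 h. At those counts the ratio of negative to positive was 17.6, with an exact 95% interval of 2.68 to 744, and the 72 h call ended without positive replicate 2 or 3 or negative replicate 1. These 3 genes were the only calls in opposite directions at the 2 times.

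Socs2, a feedback inhibitor induced by STAT5, and Cndp2, a dipeptidase, had differences of 1.18 ± 0.137 and 1.23 ± 0.141 at 48 h and of -0.03 ± 0.138 and -0.02 ± 0.147 at 72 h. Their changes were -1.21 ± 0.194 and -1.25 ± 0.203, both with an adjusted p of 0.000104. Drc1, a protein of motile cilia, went from 2.21 ± 0.171 to 0.52 ± 0.161, which did not pass at 72 h (adjusted p = 0.0806; change -1.68 ± 0.233, adjusted p = 4.96e-06). Replication genes stood at a median of 0.13 at 48 h and of -0.39 at 72 h. At 48 h 3 of 28 were called higher and 0 lower, beside 7.23% and 7.28% of all genes. The change passed for Mcm7, at -0.89 ± 0.194 (adjusted p = 0.00533), but not in the fits of the compared groups alone with or without the replicate number as a block (adjusted p up to 0.0816). Mitosis genes were alike in median at both times, 0.59 at 48 h with 11 of 24 called higher, and ribosome biogenesis genes had medians of -0.61, with 17 of 25 called lower, and -0.52.

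**Figure D4:**
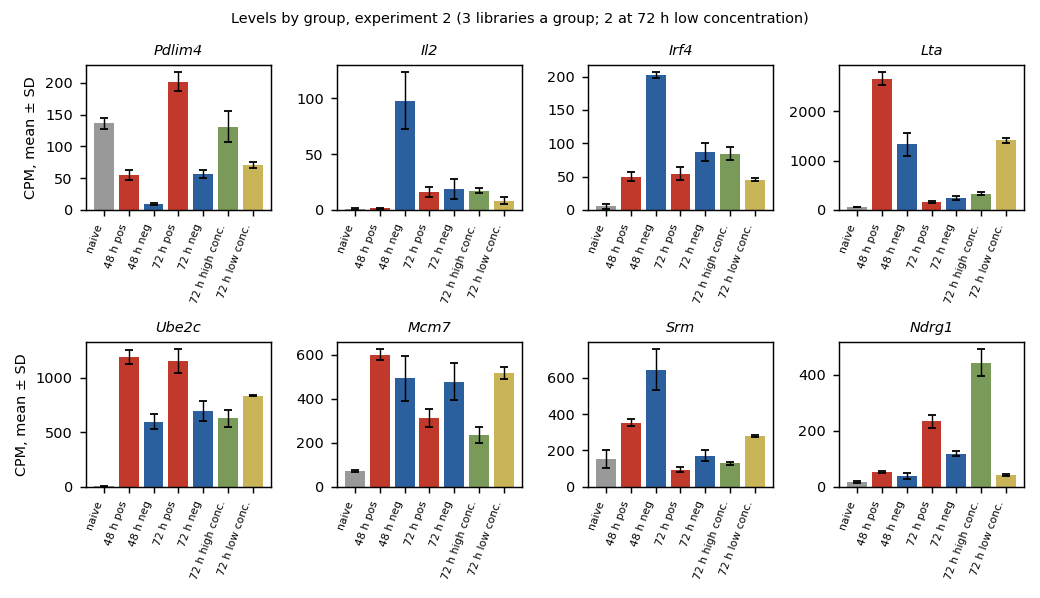
Mean CPM with SD (bars and whiskers, 3 libraries a group, 2 at 72 h low concentration) of 8 genes in naive cells, the sorted cells at 48 and 72 h, and unsorted cells started at a high or low concentration at 72 h. Il2 stood at 97.9 CPM in the negative cells at 48 h and at 15.7 and 19 CPM in both sorted groups at 72 h, and Lta fell from 2657 to 154 CPM in positive cells.

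Of the 141 genes called at 72 h, 92 were called at 48 h too, 41 of the 63 higher and 48 of the 78 lower in the same direction (65.1% and 61.5%), which are 6.14% and 7.13% of the longer 48 h lists. Across 9239 genes, Pearson's r of the differences at both times was 0.36 and Spearman's rho 0.37, a description across genes, which are not independent replicates.

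Experiment 1 sorted cells by CD62L at 72 h in 6 libraries of its own, and 1747 of 8961 genes passed there (19.5%). Of the 63 genes higher in experiment 2, 60 were tested in experiment 1 and 39 were called higher (65%), beside 10.1% of all genes there. Of the 78 lower genes, 70 were tested and 58 called lower (82.9%), beside 9.35% of all. None was called in the opposite direction, and 56 of 60 and all 70 had the same sign. The shared genes were 4.7% and 7.79% of the genes called in those directions in experiment 1 and tested in both. Over 7839 genes tested in both, Pearson's r of the differences was 0.44 and Spearman's rho 0.43.

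Genes called in both experiments included Ly6c1 (3.08 ± 0.26 in experiment 1), Gm14085 (3.67 ± 0.246), Vipr1 (2.82 ± 0.242) and Hid1 (1.91 ± 0.336) on the higher side. On the lower side were Asns (-2.71 ± 0.285), Cdkn1a (-1.95 ± 0.162), Nrgn (-1.74 ± 0.271), Rapsn (-1.54 ± 0.423) and Igfbp7 (-1.20 ± 0.283). Ndrg1 (0.01 ± 0.179, adjusted p = 0.986) and Bst2 (-0.00012 ± 0.16), called in experiment 2, did not pass in experiment 1. The mitosis genes had a median of 0.14 in experiment 1 with 0 of 23 called, beside 4 of 24 and 0.57 in experiment 2. Naive and memory genes had 15 of 20 called higher in experiment 1 and a median of 0.83. For Tcf7 and Klf2, which did not pass in experiment 2, the differences in experiment 1 were 1.55 ± 0.204 (adjusted p = 8.26e-07) and 1.02 ± 0.126 (adjusted p = 2.32e-07). Of 25 receptor-induced genes tested in experiment 1, 10 were lower and 0 higher, with a median of -0.65, beside 9.35% of all genes lower. Il2 (-2.79 ± 0.322), Nr4a1 (-1.20 ± 0.236), Bhlhe40 (-1.26 ± 0.211) and Gadd45b (-1.29 ± 0.193) passed there at 72 h. Nfkbia (0.09 ± 0.245) and Cd69 (-0.18 ± 0.239) did not. The experiments were fitted apart, so no difference between them was tested.

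**Figure D5:**
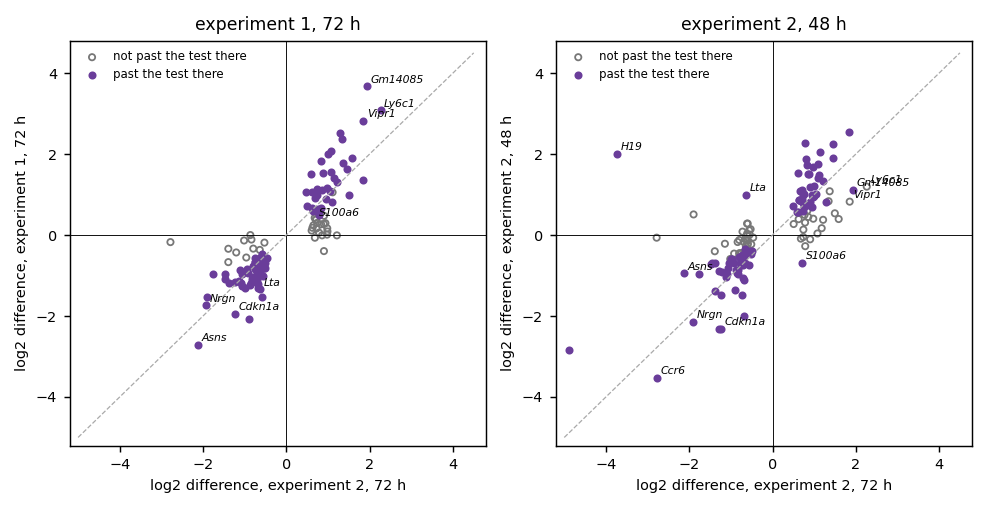
Log2 differences of the genes called at 72 h in experiment 2 (horizontal axes) against those in experiment 1 at 72 h (left) and in experiment 2 at 48 h (right), with filled points for genes that passed there, with a dashed line of equal values. On the right H19, Lta and S100a6 lie in the quadrants of opposite sign.

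Unsorted cells of experiment 2 whose cultures began at 1000000 cells per ml (high) or 62500 (low) gave a further comparison at 72 h, which was added after the data were seen and shares no library with the sorted cells. There 2447 genes passed (26.5%). All 3 high libraries carry a second title number of 1 and both low ones 2, so that number and the concentration cannot be told apart. Of the 63 genes higher in CD62L positive cells, 21 were higher at the high concentration (33.3%, beside 13% of all genes) and 9 lower. Of the 78 lower genes, 49 were lower at the high concentration (62.8%, beside 13.5%) and 3 higher. Ndrg1 was higher there by 3.42 ± 0.215 and Itga7 by 7.24 ± 0.532, the last at 195 ± 3.25 CPM (SD, n = 3) at the high and 1.2 ± 0.809 CPM (SD, n = 2) at the low concentration. Tuba1c, an alpha tubulin chosen here after its values were seen, was higher in positive cells (0.99 ± 0.161) and lower at the high concentration (-1.16 ± 0.177).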

How the data were processed

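RNA of sorted cells was captured on oligo-dT, primed with indexed poly-T primers carrying molecular identifiers, and amplified by T7 transcription, per the labels' protocols. The deposited values are raw counts per gene symbol, and the submitters' processing notes name the aligners STAR 2.5.2b and HISAT 0.1.5, the counter HTSeq 0.9.1, FastQC 0.11.7, bcl2fastq 2.17.1.14 and the build mm9. Not given in the sources used here are the aligner behind the table, any collapsing of identifiers, the annotation and the strand setting. Genes with near-identical copies are therefore uncertain, and so are genes that overlap another, which were not screened for.

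All 38 libraries of experiment 2 entered 1 fit in edgeR 4.0.16 (R 4.3.3), with 13 group coefficients, TMM scaling, filterByExpr (minimum count 10) and the robust form of the quasi-likelihood test. It tested 9239 of 24421 symbols with 25 residual degrees of freedom and a common dispersion of 0.0268. Experiment 1 (18 libraries, 8961 genes tested) was fitted apart. A gene was called when its p, adjusted by Benjamini-Hochberg over every gene tested, was under 0.05, and the SE is the log2 difference divided by the root of F. Intervals and floors (3 counts) cover counting error only. Counts for the 72 h comparison were also simulated over 9239 genes, with the changed genes drawn only from those at or above the median level. Of these, 80% of genes changed by 1 on the log2 scale and 99% of those changed by 2 were recovered, with 8 false calls among 187. Recovery of changes below the median level was not measured.

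The libraries and lists were chosen with earlier results of these data known, and the lists of folate, nucleotide, transfer RNA synthetase, chaperone and mitochondrial ribosome genes after the values were seen. Named genes are the 10 largest rises and falls past the test at or above median expression without overlap, up to 4 per list, 24 fixed genes, the 5 smallest adjusted p of the change from 48 to 72 h in each direction, and the 5 largest in each direction called in both experiments. 1 gene that the rule names is not reported here or drawn. Genes outside that rule are said to be so, or are members of a list given for comparison (Mki67, Pcna, Rrm2, Mcm3, Foxp3, Il13, Gapdh, Shmt1, Mthfd1, Cad and Aprt, chosen after their values were seen). Promoter sequences come from RefSeq on GRCm38.p6, with entries for 101 of the 141 called genes.

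Alternatives were RLE scaling, DESeq2 1.42.0, no filter, the compared groups alone with and without the replicate number as a block, ribosomal protein genes left out, the second number of the titles as a covariate or held at 1, each library left out, and libraries thinned to the smallest total, the last added after the data were seen. The sources used here do not say whether replicate libraries stem from different mice or cultures, so p-values cover the spread among these libraries alone, which may be technical. Library pairs of a group differed by 1.87 to 5.69 times the variance of counting alone (chi-square per degree of freedom), so none was a copy of another.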

Additional observations from a re-analysis of the deposited data

Results flagged for a closer look

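The CD62L difference changed between 48 and 72 h, by a test of the change itself, for 120 of 9239 genes. The change is the 72 h difference minus the 48 h difference on the log2 scale, and the values below passed at the adjusted p given with each. Positive changes were those of Il2 (5.70, adjusted p = 4.13e-08), Nr4a1 (2.80, adjusted p = 1.31e-06), Bhlhe40 (2.39, adjusted p = 4.96e-06), Gadd45b (1.62, adjusted p = 0.000104) and Nfkbia (1.12, adjusted p = 6.38e-05). Those of Cd69 (1.58, adjusted p = 0.00313), Irf4 (1.33, adjusted p = 0.000383) and S100a6 (1.40, adjusted p = 0.000995) were positive too.

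Negative changes were those of H19 (-5.74, adjusted p = 6.38e-05), Rapsn (-2.40, adjusted p = 0.00806), Drc1 (-1.68, adjusted p = 4.96e-06) and Lta (-1.64, adjusted p = 3.31e-07). Cndp2 (-1.25), Socs2 (-1.21), Crip1 (-0.92) and Mcm7 (-0.89) followed, with adjusted p of 0.000104, 0.000104, 0.0101 and 0.00533. All CD62L positive libraries at 48 h carry a second title number of 1, whereas 2 of the 3 negative ones carry 2, so that number and the sort cannot be fully told apart at 48 h. With it as a covariate 98 genes passed. Crip1 lost its call without positive replicate 2 or negative replicate 3 at 72 h, Rapsn with thinned libraries, and Mcm7 in the fits of the compared groups alone with or without the replicate number as a block (adjusted p up to 0.0816).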

How the results depend on the processing

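At 72 h, DESeq2 called 229 genes, 142 of them lower, and the fit of the compared groups alone 231 (109 higher, 122 lower), beside 141 (63 and 78). With second title number 1 alone, 60 passed (30 and 30). Leaving out 1 library gave 50 to 119 calls, 26 to 48 higher and 24 to 71 lower, and in the fits with fewer libraries the cause was not tested beyond their size. RLE scaling, no filter, ribosomal protein genes left out, the second number as a covariate and thinning gave 144, 182, 146, 170 and 124. The change from 48 to 72 h kept its count of 120 within 1.5 times under every alternative, with 82 to 172 over left-out libraries, 32 to 74 of them upward and 47 to 98 downward. At 48 h, 818 to 1480 genes passed over left-out libraries (432 to 772 higher, 386 to 708 lower) and 844 (441 and 403) with the second number as a covariate, beside 1341. In experiment 1, 1271 to 1763 passed over left-out libraries, 571 to 785 of them higher, beside 1747.

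The deviations of same-numbered positive and negative replicates at 72 h had correlations of -0.10, 0.19 and -0.12 across genes. Only the pair at 0.19 shares the second title number, so this check cannot tell whether the replicate numbers pair the libraries. The 5 pairs of a positive and a negative library that share the second title number correlated at 0.039 to 0.30, and the 4 that do not at -0.25 to -0.097. With the replicate number as a block, 131 genes passed at 72 h, 94 for the change, 875 at 48 h (430 higher, 445 lower) and 2343 in experiment 1.

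Of 65 calls on named genes, 34 held in every alternative. Over 1043 alternative values of those calls, 910 stayed past the threshold, 133 did not and 0 changed sign. Among genes that did not pass, signs turned for Cd69, Cndp2, Il2, Myc, Nr4a1 and Socs2. Over left-out libraries their 72 h differences ran from -0.064 to 0.20 (Cd69), -0.10 to 0.057 (Cndp2), -0.50 to 0.15 (Il2), -0.45 to 0.021 (Myc), -0.31 to 0.0056 (Nr4a1) and -0.089 to 0.029 (Socs2). With second number 1 alone Cd69 was at -0.040 and Cndp2 at 0.033. At 1055838 to 1647605 counts a library, genes at a few CPM rest on under 20 counts a group, and recovery of changes in such genes was not simulated.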

Other observations

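Genes of protein synthesis and folding outside the ribosome biogenesis list were mostly on the lower side in positive cells, in lists drawn up after the values were seen. All 19 cytosolic aminoacyl-tRNA synthetases tested, which load transfer RNAs with amino acids, had differences below 0, with a median of -0.41 beside 0.01 over all genes. Of these, Mars (-0.73 ± 0.173, adjusted p = 0.0133), Yars (-0.74 ± 0.19, adjusted p = 0.0273) and Gars (-0.50 ± 0.131, adjusted p = 0.0326) passed. Among 18 chaperones, Hspd1, the folding chamber of mitochondria, had 107, 109 and 113 CPM in positive and 180, 186 and 175 CPM in negative cells (-0.72 ± 0.152, adjusted p = 0.00494). Hsph1 was lower as well (-0.75 ± 0.205, adjusted p = 0.0439), and the list's median was -0.29. Of 71 mitochondrial ribosome genes tested, Mrpl38, Mrps28, Mrps6 and Mrpl12 were lower and none was higher, at a median of -0.19. Beside the calls in these lists, 0.844% of all genes were called lower. Without any one library, 0 to 3 synthetases, 1 to 2 chaperones and 1 to 4 mitochondrial ribosome genes passed.

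Some further surface receptors, chosen after their values were seen, were higher in positive cells. Cd7, an immunoglobulin superfamily protein of T cells, had 45.8, 36 and 39.7 CPM against 15, 19.7 and 13 CPM (1.35 ± 0.334, adjusted p = 0.0216). Ly6a, which has near-identical relatives, was higher by 1.05 ± 0.276 (adjusted p = 0.033), Itgb3, an integrin chain, by 0.70 ± 0.166 (adjusted p = 0.0145) and Il17ra, a receptor chain for IL-17, by 0.63 ± 0.168 (adjusted p = 0.0365). Ifnar2, a chain of the type I interferon receptor, had 133, 145 and 118 CPM against 86.5, 72.2 and 76.2 CPM (0.75 ± 0.165, adjusted p = 0.00668). Ebi3, a cytokine subunit, was lower, with 27.4, 27.6 and 27.6 CPM against 49.4, 46.7 and 57.6 CPM (-0.90 ± 0.2, adjusted p = 0.00806).

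Cyp1a1, a target of the aryl hydrocarbon receptor, had 8 counts in the negative and 0 in the positive libraries, at least 3.35-fold lower over a floor of 3 counts for the group (adjusted p = 0.0327). Rps15a, a ribosomal protein gene with many near-identical copies, had 18 and 3 counts, a ratio of 7.54 with an exact 95% interval of 2.2 to 40.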
